A study of Mus musculus with 6 samples.

Results

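Basophils and mast cells are rare granulocytes that carry the high-affinity IgE receptor FcεRI and store histamine, proteoglycans and serine proteases in their granules. Both grow from c-Kit+ bone marrow progenitors that turn on the transcription factor Gata2; basophils finish their maturation in the marrow under IL-3, whereas mast cell progenitors leave it early and mature in tissues under stem cell factor, the ligand of c-Kit. Basophil and mast cell progenitors were examined here among c-Kit-enriched bone marrow cells profiled by droplet single-cell RNA sequencing, in which each captured transcript is counted once as a unique molecular identifier (UMI).

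The marrow came from BALB/c mice of 10 weeks in 3 groups of 3 mice: non-tumor-bearing (NTB) mice, mice with orthotopic 4T1 mammary tumors given vehicle (DPBS), and 4T1-bearing mice given brequinar (BRQ), an inhibitor of the pyrimidine synthesis enzyme DHODH. 4T1 is a transplantable BALB/c mammary carcinoma line, and vehicle and BRQ were injected i.p. daily. All 9 mice were enriched with c-Kit magnetic beads, so cells with little surface c-Kit were depleted in every group. Each of 3 pools held 1 mouse of each group, and an antibody with a short DNA barcode (a hashtag) marked the mouse of origin. The hashtags decide which mouse a cell counts for, and their 15-base sequences, from the labels, are shown for that reason.
NTB hashtag B0301: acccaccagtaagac
vehicle hashtag B0302: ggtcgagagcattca
BRQ hashtag B0303: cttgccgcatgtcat

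Members were the cells that met at least 3 of 5 conditions and held 0 UMIs of Epx, the eosinophil peroxidase gene. The conditions were at least 5 UMIs of Prss34, at least 5 of Mcpt8, at least 2 of Cpa3, at least 1 of Ms4a2 and at least 1 of Fcer1a. Prss34 and Mcpt8 encode serine proteases of basophil granules, Cpa3 encodes the carboxypeptidase of mast cell and early basophil granules, and Fcer1a and Ms4a2 encode the alpha and beta chains of FcεRI. Of 32762 cells with 500 to 7500 detected genes and a mitochondrial share of at most 15%, 182 were members. The pools gave 65 of 11175 cells (0.582%), 54 of 9593 (0.563%) and 63 of 11994 (0.525%), whose exact binomial 95% intervals overlapped. No member barcode occurred in more than 1 pool, while the filtered pools shared 30, 37 and 26 barcodes pairwise.

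Members held a median of 8660 UMIs (range 830 to 47351) and 2812.5 genes, near the 9472 UMIs and 2687 genes of the other 32580 cells. The 3 pools held 100700982 to 135564079 UMIs in all. Scrublet marked 18 members (9.89%) as likely doublets against 4.51% of other cells, and the hashtags marked 19 as doublets. The hashtags gave 70 members to 1 mouse and left 93 (51.1%) negative against 40.1% of other cells. Each level given below without a group therefore covers all 182 members, and a level is the number of UMIs of a gene per 10000 UMIs summed over the cells named.

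All 5 conditions were met by 78 members, 4 by 42 and 3 by 62. Cpa3, Ms4a2 and Fcer1a without either protease made up the conditions of 58 members, and all conditions but Prss34 those of 33. By condition, 88 of the 182 members passed for Prss34 and 121 for Mcpt8, against 178 for Cpa3, 181 for Ms4a2 and 176 for Fcer1a. Mcpt8 ranged from 0 to 321 UMIs per member (median 18, with 37 cells at 0), and Prss34 from 0 to 387 (median 3, with 75 cells at 0). These counts follow in part from the rule, since a cell without either protease needs the other 3 conditions. Across the edge of the rule, the 62 members with exactly 3 conditions had a Ms4a2 level of 8.39 and a Cpa3 level of 5.92. The 81 cells with exactly 2 conditions and no Epx, which are just outside, had 2.97 and 2.36.

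**Figure D1:**
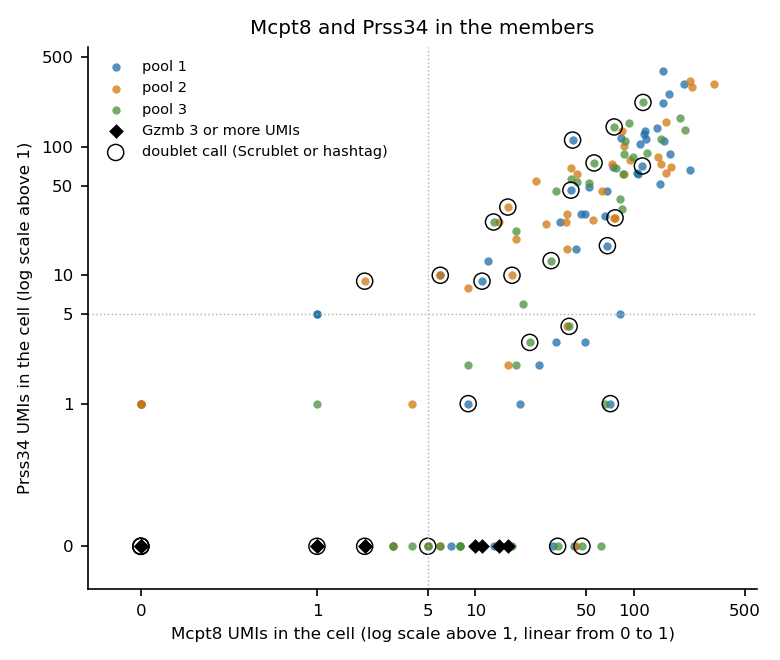
Each point is 1 of the 182 members, with its Mcpt8 UMIs on the x axis and its Prss34 UMIs on the y axis, both on a log scale above 1 and linear from 0 to 1. Colors mark pools, diamonds the cells with 3 or more Gzmb UMIs and rings the doublet calls, and the members run from cells at 0 for both genes to cells with up to 321 Mcpt8 and 387 Prss34 UMIs.

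The label was checked against marker genes. Gata2, which the rule did not use, had a level of 6.88 in members and 0.138 in other cells, and 175 of 182 members held it. With each cell thinned to 2000 UMIs, 142 of 180 members (78.9%) held Gata2, against 2 of 135 B lineage cells (1.48%), a class that should lack it (median UMIs before thinning 8660 and 4932). Markers of other lineages were low. The 11 eosinophil genes summed to a level of 1.31, against 161 in 68 eosinophil lineage cells. They include Epx, which the rule set to 0, and of the other 10 genes 7 were detected. The 15 megakaryocyte genes summed to 1.43, against 185 in 116 megakaryocyte cells, and 5 of them were at 0, while Pf4, the platelet factor gene, was found in 4 members. The 12 B lineage genes summed to 0.671 and the 16 erythroid genes to 3.99, both under the other cells (6.76 and 8.51). The 28 cells that met the marker conditions but held Epx were left out by the rule. Their level of Prss34 was 47.8 and of Gata2 4.38, and their level of Prg2, the eosinophil major basic protein gene, was 23.6, against 0.220 in members, where 8 cells held it, and 101 in eosinophil lineage cells.

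Neutrophil granule RNA was the exception. The 17 neutrophil genes summed to 271 in members, with 113 to 406 in the 3 pools, against 972 in other cells. Without the cells marked as doublets by Scrublet or hashtags the sum was 83.8. None of the 17 genes was at 0 and none was higher in members than in other cells. S100a8, a calcium-binding protein gene of neutrophils, had a level of 62.8 in all members and 7.46 without doublets. The part of this RNA in each result below was not tested.

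The label joins basophil and mast cell progenitors, and the granule protease genes of mature mast cells were nearly absent. Mcpt1, Mcpt2, Mcpt4, Mcpt9, Tpsb2, Tpsab1 and Tpsg1 had 0 UMIs in the 182 members, and Cma1, the mast cell chymase gene, had 7 UMIs in 2 cells. The mast cell receptor genes Mrgprb1 and Mrgprb2 also had 0 UMIs. Of the 27 genes on the mast cell list, 18 were detected, among them Cpa3, Srgn, Hdc and Kit. Without the genes of the rule, 14 of 15 detected mast cell genes had a higher level in members than in other cells. The exception was Mitf, the mast cell transcription factor, which was found in 9 members at a level of 0.0472, below that of other cells (0.0619). On the basophil list, 29 of 30 genes were detected, Il13 being at 0. Without the 5 genes of the rule, 23 of 24 detected basophil genes had a higher level in members than in other cells, where 60.5% of all 13469 detected genes did.

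The start sites of genes that were high together in the members are shown because Gata2, whose protein family binds GATA motifs, was high in the same cells. Each line gives the 100 bases before the RefSeq gene start on the gene's own strand (GRCm38.p6), with GATAA, or TTATC for the same motif on the other strand, in capitals.
Prss34, chr17:25298294-25298393, + strand: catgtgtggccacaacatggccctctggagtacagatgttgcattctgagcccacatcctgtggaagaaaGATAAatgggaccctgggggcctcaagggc
Cpa3, chr3:20242182-20242281, - strand: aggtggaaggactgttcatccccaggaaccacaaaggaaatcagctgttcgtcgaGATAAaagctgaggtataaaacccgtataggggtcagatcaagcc
Ms4a2, chr19:11623720-11623819, - strand: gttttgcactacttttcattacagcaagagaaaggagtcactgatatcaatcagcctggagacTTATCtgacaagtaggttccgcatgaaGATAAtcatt
Fcer1a, chr1:173227230-173227329, - strand: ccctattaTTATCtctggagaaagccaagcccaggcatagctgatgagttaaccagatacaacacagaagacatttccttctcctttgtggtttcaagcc
Cd200r3, chr16:44943578-44943677, + strand: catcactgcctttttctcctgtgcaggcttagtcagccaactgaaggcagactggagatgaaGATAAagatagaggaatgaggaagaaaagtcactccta
The match began 30 bases before the start of Prss34, 45 before Cpa3, 92 before Fcer1a, 38 before Cd200r3, and 37 and 10 before Ms4a2. Of 9 genes searched over 250 bases, these 5 held the motif on either strand. Mcpt8, Gata2, Cyp11a1 and Csrp3 did not hold these letters in that window. For Mcpt8 the RefSeq window overlaps the gene as the GENCODE annotation draws it, and for Cyp11a1 neither of 2 RefSeq windows adjoins the GENCODE start, so these windows may not lie just upstream of the start in use. Among 27025 RefSeq promoters of that length 23.0% held it. A match is a description of the letters and not of binding.

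Of the 1456 genes at a level of 1 or more in members, the 30 with the highest ratio to other cells had a higher level in members in all 3 pools. These genes were chosen by that ratio, so the values are descriptions. The list opened with Prss34 (37.6 against 0.0566), Cyp11a1, Fcer1a, Cd200r3, Cpa3 and Ms4a2, of which Prss34, Fcer1a, Cpa3 and Ms4a2 were conditions of the rule. Cyp11a1, which encodes the cholesterol side-chain cleavage enzyme that starts steroid synthesis, had a level of 1.46, 2.35 and 2.04 in the members of the 3 pools and 0.00366 in other cells, and 122 members held it. Cd200r3, an activating receptor of basophils and mast cells, had a level of 1.27 against 0.00321. Csrp3, best known as a muscle LIM-domain protein gene, had a level of 4.06 against 0.0220, and 88 of 180 thinned members (48.9%) held it, against 1 of 135 B lineage cells (0.741%). Without the Scrublet doublets 28 of the 30 genes stayed on the list, and without both kinds of doublets 26.

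Genes of mediator storage and release followed. Slc18a2, the vesicular transporter that loads monoamines such as histamine, had a level of 2.95 against 0.0810 and was present in 164 members. Hdc, which makes histamine, had 2.47 against 0.971, and eosinophil lineage cells had 5.24. Stx3, a syntaxin of membrane fusion, had 1.45 against 0.0491. In eosinophil lineage cells Slc18a2 had 0.929 and Stx3 1.13, the latter near the members. The gap to other cells was smaller for Hdc than for Slc18a2 and Stx3. Alox5, which starts leukotriene synthesis, had a level of 1.54 against 0.257, whereas Ltc4s, which makes leukotriene C4, was found in 7 members and Ptgs2 in 1. Cd63, a granule membrane tetraspanin exposed when basophils degranulate, had 8.52 against 3.50.

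Receptors for the cytokines that act on these cells were also present. Csf2rb2, the mouse beta chain particular to the IL-3 receptor, had a level of 1.82 against 0.0803. The shared beta chain Csf2rb had 3.54 against 0.830, and the alpha chain Il3ra had 0.587 against 0.134. Il1rl1, the IL-33 receptor, had 1.49 against 0.0700. These 4 genes were higher in the members than in other cells, but of 27 detected cytokine receptor genes 12 (44.4%) were, under the 60.5% of all detected genes (median log2 ratio -0.22). Kit had a level of 1.28 against 0.765 and 110 members held it. Il5ra, the IL-5 receptor alpha chain of eosinophils, had 0 UMIs in members and a level of 0.00251 in other cells.

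Signaling genes of FcεRI were closer to the other cells. Without the 2 chains used by the rule, the 28 genes of FcεRI signaling were all detected in members, and 17 (60.7%) had a higher level than in other cells, near the 60.5% of all detected genes. The median log2 ratio was 0.12, against 2.15 for the basophil list without the genes of the rule. The gamma chain Fcer1g had 4.02 against 2.61. The kinases Lyn (0.577 against 0.762), Syk (0.755 against 0.732) and Btk (0.729 against 0.600) were near the level of other cells. Lat2, an adaptor of the pathway, was the exception with 1.07 against 0.0962.

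Among transcription factors, Lmo4 (14.0 against 1.66), Runx1 (4.61 against 0.891) and Cebpa (1.50 against 0.331) were higher in members. On the list of lineage transcription factors 24 of 38 genes (63.2%) were higher, near the 60.5% of all detected genes. Ikzf2, the gene of Helios, had 5.06 against 0.255 but reached 7.08 in eosinophil lineage cells. Itga2b, the megakaryocyte integrin CD41, was on the list of 30 at 1.07 against 0.0803, and megakaryocyte cells had 7.59. These last 2 genes were therefore shared with a neighboring lineage. Of 28 cytokine and chemokine genes, 15 were detected and 13 were at 0. Csf1 had a level of 1.25 against 0.0344 and Hgf 0.933 against 0.0799. Il4 was found in 29 members (0.178 against 0.000733) and Il6 in 35 (0.225 against 0.00144).

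**Figure D2:**
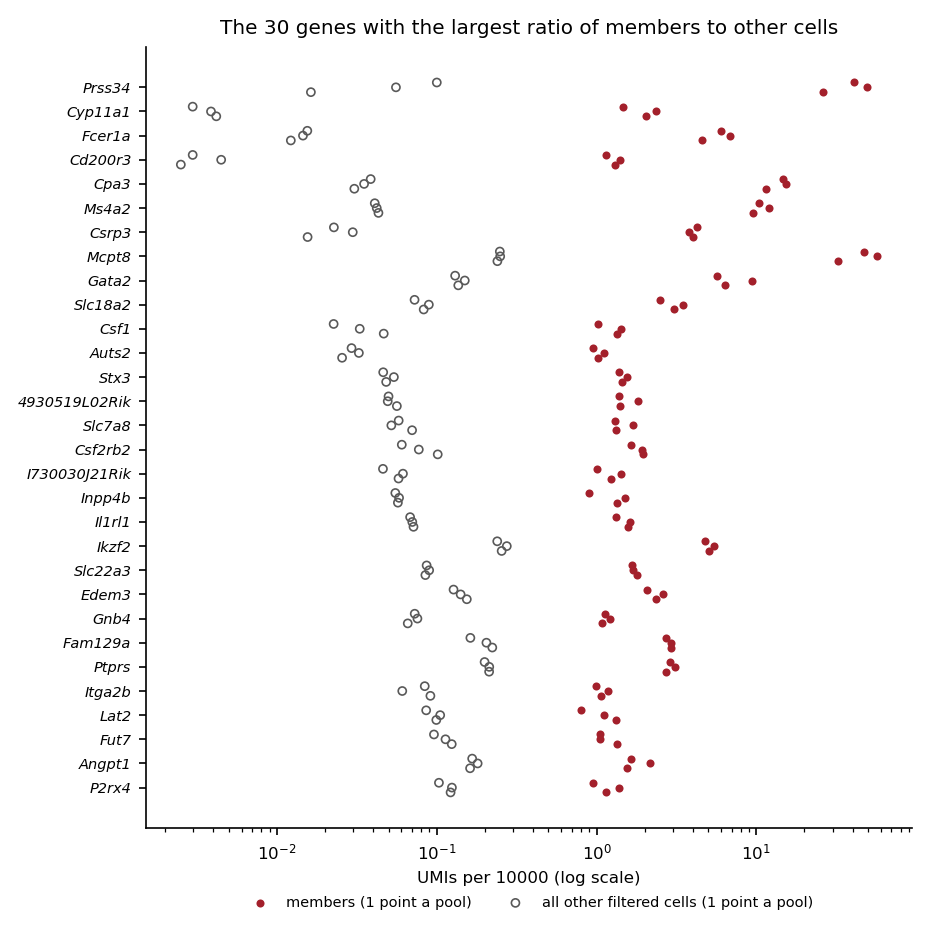
The 30 genes with the highest ratio of members to other filtered cells are shown by level (UMIs per 10000, log axis), with a filled point for the members and an open point for the other cells of each pool. The members of all 3 pools lie above the other cells for each of the 30 genes.

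The members were divided by Mcpt8 UMIs into 37 cells with 0 (20.3%), 24 with 1 to 4 (13.2%), 62 with 5 to 49 (34.1%) and 59 with 50 or more (32.4%). These are ranges of 1 measure, not types, and the cuts were arbitrary. Median depth was alike in the 4 ranges (8907, 9555.5, 7825 and 9008 UMIs), and 3, 3, 14 and 7 of their cells were marked as doublets. Of the 1456 genes with a level of 1 or more in members, 1347 were compared, after ribosomal protein and mitochondrial genes, predicted genes named Gm or Rik and repeated symbols were left out. Of these, 192 (14.3%) were higher in the cells with 50 or more than in those with 0 in such a way that the pools did not overlap. In the other direction there were 235 (17.4%). No test was run on these ranges, and 1215 of the 1347 genes kept their direction without the doublets. The median log2 ratio of all 1347 genes was -0.05.

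The lists are given without the 5 genes of the rule, which chose the members and, through Mcpt8, the ranges. On the basophil list 7 of 13 remaining genes were higher in the upper range with no overlap of the pools and 2 lower (median log2 ratio 0.65), and on the list of mediator synthesis and storage 7 of 12 were higher and 0 lower (0.53). Cd200r3 had levels of 0.279, 0.482, 0.973 and 2.49 from the lowest to the highest range. Alox5 had 0.229, 1.00, 1.00 and 3.09, and its partner Alox5ap 1.88, 2.37, 3.28 and 4.41. The levels of Cd200r3 and Alox5ap thus stepped up from each range to the next. Fcer1g had 1.32, 1.69, 4.00 and 6.60, which in the lowest range was 0.446 to 2.05 over pools and in the highest 6.31 to 6.85. Il18rap, the accessory chain of the IL-18 receptor, had 0.0508, 0.281, 0.542 and 1.57. Cyp11a1 had 0.533, 1.93, 1.90 and 2.73, so its widest step lay between the lowest range and the next.

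Genes of the secretory pathway followed the same order. Of 29 genes compared on the list of the unfolded protein response and endoplasmic reticulum (ER) chaperones, 19 were higher in the upper range with no overlap and 0 in the lower, with a median log2 ratio of 0.80. Hspa5, the ER chaperone BiP, had 2.46, 2.89, 5.64 and 8.23. Hsp90b1, which encodes GRP94, had 4.06, 4.86, 7.77 and 12.3. Without doublets these 2 genes had 2.37 and 3.73 in the lowest range and 8.90 and 14.3 in the highest, so the gap was no smaller. Among the other 17 were the disulfide isomerases Pdia3, Pdia4 and Pdia6, the translocon genes Sec61b and Sec61g, and Xbp1, the transcription factor of this response.

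Some genes had the opposite order. Those named here were chosen after their values were seen, since only 1 of the 12 stem and multipotent genes, Cd34, was among those compared. Cd34 had levels of 2.29, 1.89, 1.31 and 0.674, and Meis1, a homeobox gene of stem and progenitor cells, 1.60, 1.53, 0.654 and 0.282. In both, the pools of the lowest range lay above those of the highest. Kit had 1.96, 2.65, 0.989 and 0.627, but its pools overlapped (0.821 to 3.18 in the lowest range and 0.409 to 1.10 in the highest). Zfpm1, the GATA cofactor FOG-1, had 0.940 in the lowest range and 0.110 in the highest, and Stat5a, a signal transducer of the IL-3 receptor, 1.02 and 0.235. Of 13 nucleolar ribosome assembly genes compared, 6 were higher in the lowest range without overlap and 0 in the highest (median log2 ratio -0.53). Npm1, a nucleolar chaperone, had 18.0, 20.2, 17.6 and 12.2, which was highest in the second range.

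Transcription factors were divided. Cebpa had 0.762, 1.16, 1.50 and 2.10, and Cebpb 0.660, 0.843, 1.58 and 1.96, with no overlap of the pools at the ends. Lmo4, Ikzf2, Myb and Etv6 were higher at the low end, Myb with 8.43 in the lowest range and 4.08 in the highest. Gata2 had 5.56, 7.11, 5.68 and 8.78, and its pools overlapped. Gata1, the related factor of erythroid cells, eosinophils and mast cells, had 0.940 in the lowest range and 0.455 in the highest. The pools were thus apart at the ends for both C/EBP genes and not for Gata2.

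Some genes of the cell type were at a like level in all ranges. Hdc had 2.23, 2.53, 2.60 and 2.46, and Csf2rb 3.50, 4.01, 3.25 and 3.65. Il1rl1 had 1.80, 1.77, 1.21 and 1.46, and Slc18a2 3.56, 3.81, 2.69 and 2.49. In all 4 the pools of the lowest and highest ranges overlapped. The ranges under 50 include 14 members with at least 3 Gzmb UMIs, described below. Their levels were 5.87 for Il1rl1 and 8.33 for Slc18a2, against 1.26 and 2.90 in the 107 members with no Gzmb and Mcpt8 under 50. Hdc was lower in them (1.77 against 2.54). Their part in the levels over the ranges was not tested. Outside the lists, and named after their values were seen, the transcription factor gene Ets1 had 0.254, 0.442, 1.79 and 3.68. Sox4, a transcription factor gene of immature cells, had 5.18, 4.46, 1.91 and 1.38, and Apoe 6.93, 4.05, 3.95 and 2.27.

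Neutrophil RNA and proliferation were set beside these ranges. S100a8 had 5.49, 11.7, 111 and 70.7, but 3.52, 12.6, 11.9 and 4.18 without doublets. Of 11 neutrophil genes compared, 6 were higher in the upper range over all cells without overlap, and 8 of 11 kept their direction without doublets. The 52 G2/M phase genes summed to 85.4, 78.4, 50.4 and 100 over the ranges, and 3 of 22 compared were higher at the high end and 1 at the low end. For the G2/M list that share was near the 14.3% and 17.4% of all genes or under it.

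**Figure D3:**
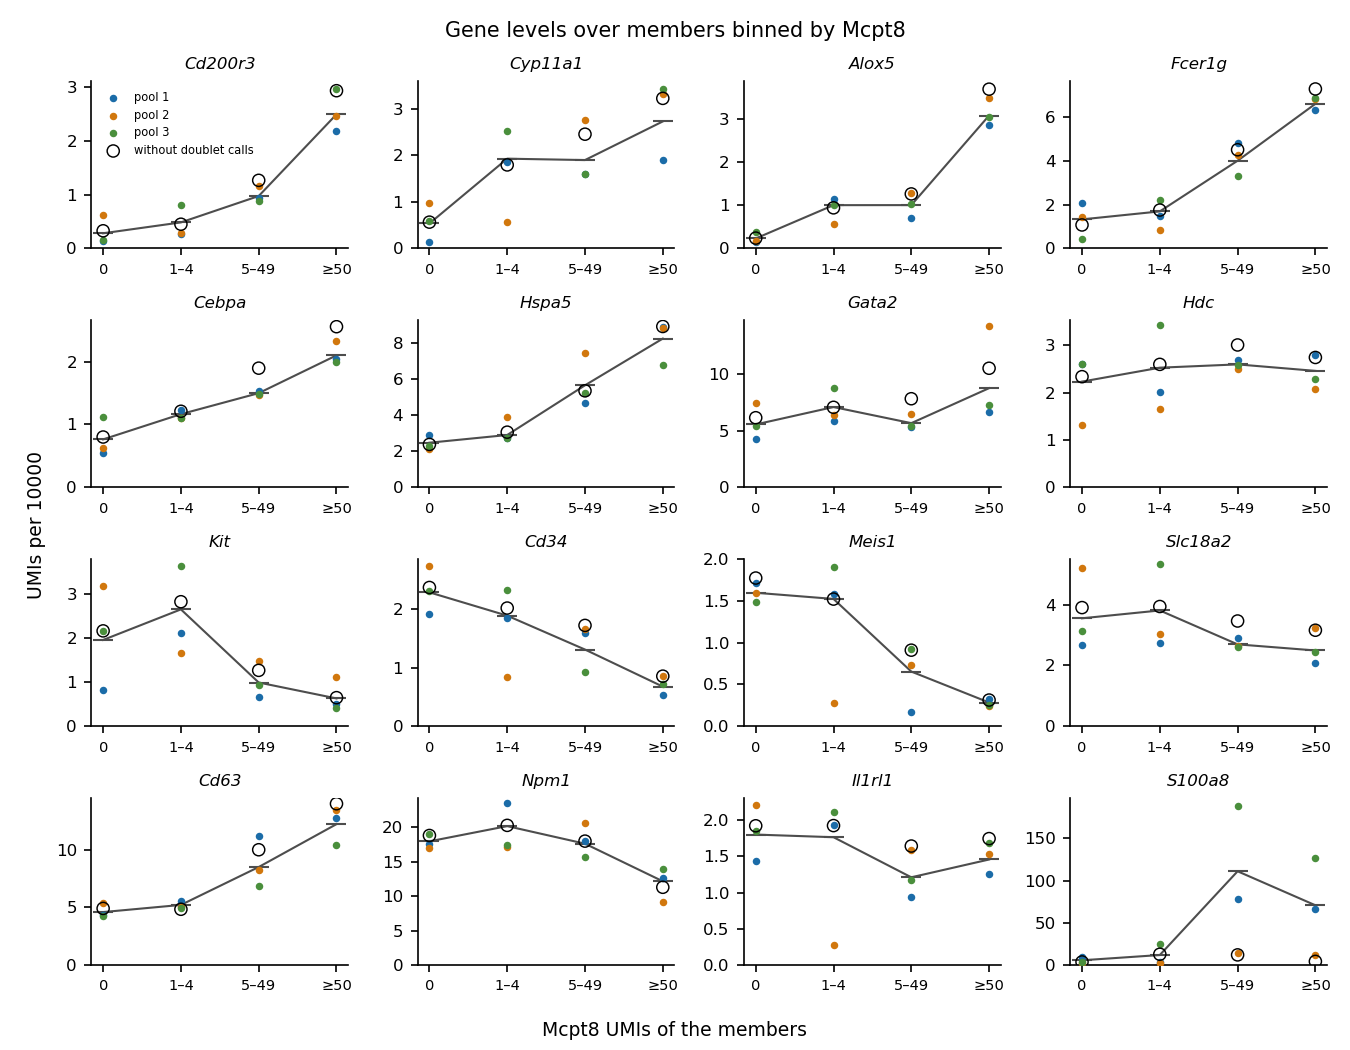
Each panel shows the level of 1 gene (UMIs per 10000) in the members with 0, 1 to 4, 5 to 49 and 50 or more Mcpt8 UMIs, with the 3 pools as points, all pools together as the line and the values without doublets as open circles. Cd200r3, Alox5, Fcer1g, Cebpa and Hspa5 are higher at the right end and Cd34 and Meis1 at the left, with no overlap of the pools, while Hdc and Il1rl1 overlap.

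A small group of members held Gzmb, the gene of granzyme B, a protease of cytotoxic lymphocytes that mast cells can also make. It was noticed after values were seen, so it was described and not tested. Gzmb was present in 16 members, of which 14 (7.69% of members) had at least 3 UMIs, from all pools (3, 4 and 7 cells). Scrublet marked 0 of the 14, and their Mcpt8 did not exceed 16 UMIs. Their level of Kit was 8.60, against 1.20 in the 107 members with no Gzmb and Mcpt8 under 50. Cpa3 (23.5 against 6.89), Slc18a2 (8.33 against 2.90) and Il1rl1 (5.87 against 1.26) were also higher in these 14 cells, as was Gata2 (14.9 against 5.44). Itgb7, the integrin chain used by mast cell progenitors to enter the gut, had 2.32 against 0.282 and was found in 11 of the 14. Prss34 was at 0 UMIs in the 14 cells and had a level of 8.11 in the 107. Mki67, a gene of cycling cells, had 0.273 against 2.45, and Top2a, the mitotic topoisomerase, 0.409 against 4.08. Cma1 was found in 2 of the 14, and the genes of mature mast cell tryptases were at 0 here as well. The hashtags left 10 of these 14 cells negative, so the groups of mice were not compared for them. In the sums over the 7 mice compared below, Gzmb had 16 UMIs, all in the NTB mouse of pool 3. EdgeR called it lower in BRQ minus NTB only with no filter on low counts. The vehicle mouse of pool 3, which was left out of those 7, had only 2 members, and both held Gzmb (6 and 3 UMIs).

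Members were next counted per mouse, over the cells the hashtags gave to 1 mouse, to ask whether tumor or BRQ went with a different share. The NTB mice of pools 1, 2 and 3 had 5 of 554, 5 of 1307 and 13 of 2447 cells (0.903%, 0.383% and 0.531%). The vehicle mice had 10 of 2780, 3 of 382 and 2 of 1261 (0.360%, 0.785% and 0.159%). The BRQ mice had 15 of 2571, 8 of 2321 and 9 of 2343 (0.583%, 0.345% and 0.384%). The shares of the 3 groups overlapped. Means were 0.605% ± 0.268 (SD, n = 3) in NTB, 0.435% ± 0.320 (SD, n = 3) in vehicle and 0.437% ± 0.128 (SD, n = 3) in BRQ mice.

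The difference of means was -0.171 percentage points for vehicle minus NTB (two-sided exact permutation test p = 0.5, adjusted over the 3 comparisons 0.9). It was 0.00286 for BRQ minus vehicle (exact permutation p = 1) and -0.168 for BRQ minus NTB (exact permutation p = 0.6, adjusted 0.9). With 3 mice against 3 the smallest possible p is 0.1, so no difference could pass 0.05. The exact binomial interval of the vehicle mouse of pool 2 alone ran from 0.162% to 2.28% (the intervals cover counting error only). When a cell was given to a mouse by the ratio of its hashtag counts instead, the vehicle minus NTB difference was -0.360 points, with 1 of 636 and 0 of 659 cells as members in the vehicle mice of pools 2 and 3 (3 cells of 659, the limit used here for a count of 0, would be a share of 0.455%, and the exact binomial upper limit is 0.558%). The p of that difference was 0.1 (exact permutation test, adjusted 0.3), the smallest possible, and the vehicle shares (0 to 0.422%) lay below the NTB shares (0.473% to 0.688%). The 37 members that both methods gave to a mouse went to the same mouse. The singlet calls covered 70 members and the tag ratio 57, so many members had only 1 of the 2 calls. The tag ratio left 21 BRQ, 7 NTB and 5 vehicle singlets without a mouse. It gave 14 members to NTB, 4 to vehicle and 2 to BRQ mice that had no singlet call.

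**Figure D4:**
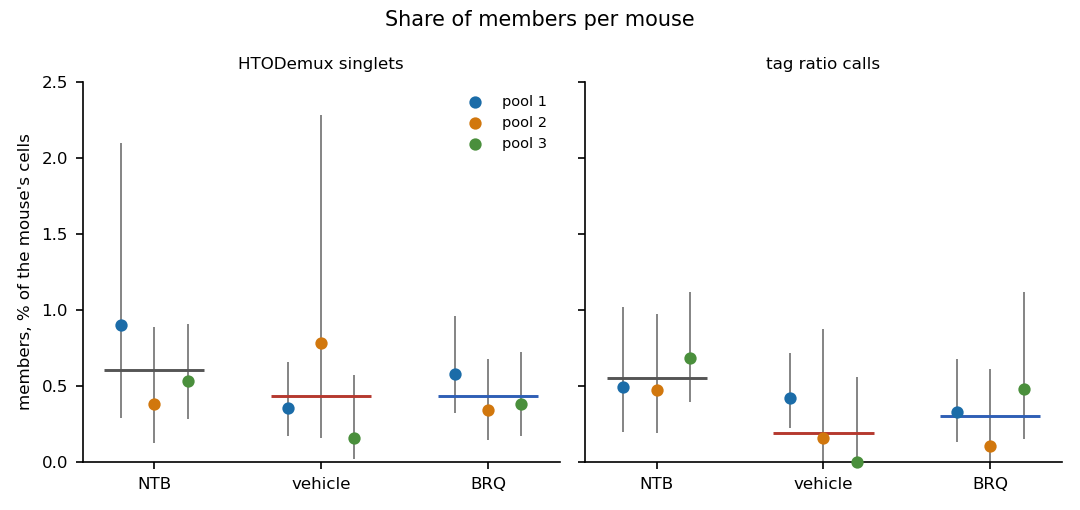
Each point is the share of 1 mouse's cells that were members, in percent, with its exact binomial 95% interval, by group and pool, for the hashtag singlets on the left and the tag ratio calls on the right, and the bar marks the group mean. On the left the 3 groups overlap, from 0.159% in the vehicle mouse of pool 3 to 0.903% in the NTB mouse of pool 1.

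The genes of the rule are given as levels per mouse, and no test of them is used as a result. They stayed among the 3071 genes of the edgeR fit below, and some other settings called Mcpt8, Prss34 or Cpa3. In the order of pools 1, 2 and 3, the Mcpt8 level of NTB mice was 33.8, 135 and 49.9. Vehicle mice had 26.7, 79.2 and 15.6, and BRQ mice 51.1, 28.2 and 27.4. The NTB mouse of pool 2 was the highest for Mcpt8 and for Prss34 (131, against 0 to 79.6 in the other 8 mice), and it held only 5 members. Cpa3 ranged from 7.42 to 29.8 in NTB, from 6.86 to 32.3 in vehicle and from 8.16 to 20.3 in BRQ mice, and Ms4a2 from 8.14 to 15.3, 3.13 to 10.6 and 8.71 to 10.8. Fcer1a ranged from 3.08 to 9.93, 4.17 to 6.54 and 3.94 to 6.18. All groups overlapped for these 5 genes, and Epx was at 0 by the rule. Members with 50 or more Mcpt8 UMIs numbered 3 of 5, 4 of 5 and 6 of 13 in the NTB mice, 2 of 10, 1 of 3 and 0 of 2 in the vehicle mice, and 5 of 15, 2 of 8 and 2 of 9 in the BRQ mice.

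UMIs were then summed over the members of each mouse and compared with edgeR for the 7 mice with at least 5 members, which left 3 NTB, 1 vehicle (pool 1) and 3 BRQ mice. The lone vehicle mouse is assumed to vary like the other groups. Of 3071 genes tested, 0 were called at an adjusted p under 0.05 in any of the 3 comparisons (0% called), and the smallest adjusted p in edgeR was 0.875 for vehicle minus NTB, 1 for BRQ minus vehicle and 0.362 for BRQ minus NTB. At an unadjusted p under 0.05 edgeR had 155, 78 and 170 genes. In vehicle minus NTB these were 2.31% of genes on the higher side and 2.74% on the lower, in BRQ minus vehicle 1.6% and 0.944%, and in BRQ minus NTB 2.64% and 2.9%. DESeq2 also called 0 genes, but it was fitted to 12399 genes with no filter on low counts before the fit. Of these, 79 had an unadjusted DESeq2 p under 0.05 in BRQ minus NTB, so the numbers of the 2 methods are not on the same set of genes. With the pool as a block, which pairs the mice of a pool and leaves 2 residual degrees of freedom, edgeR called 25, 3 and 9 genes. Of the 9 called under the block for BRQ minus NTB, 5 were on the neutrophil list and 2 on the erythroid list, and the 3 for BRQ minus vehicle were Elane, Prtn3 and Ifitm1. Without the NTB mouse of pool 3, whose neutrophil level was the lowest of its group, the calls were 25 for vehicle minus NTB and 44 for BRQ minus NTB.

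Leaving out the Scrublet doublets took the NTB mice of pools 1 and 2 to 3 and 4 members, under the minimum of 5, so that fit set 1 NTB mouse (pool 3) and 1 vehicle mouse beside 3 BRQ mice. With the same 7 mice kept and the Scrublet doublets left out, an alternative added after seeing the data, edgeR called 0 genes in each comparison (158, 86 and 173 at an unadjusted p under 0.05). With tag ratio calls the fit held 3 NTB, 1 vehicle and 2 BRQ mice.

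The summed level of the 17 neutrophil genes in members, by pool, was 402, 165 and 56.8 for NTB. Vehicle mice had 69.9, 306 and 1042, and BRQ mice 138, 103 and 60.3. The 1042 came from 2 members, 1 with 207 UMIs of S100a8 and the other with 2. The 3 groups overlapped, and 0 neutrophil genes were called by edgeR over the 7 mice with doublets kept and no block. In BRQ minus NTB edgeR called 5 neutrophil genes with the block, where 9 of all 3071 genes were called. With no filter on low counts it called 8, among 30 of 12318 genes, and with tag ratio calls 5, among 17 of 2328. Without the NTB mouse of pool 3 it called 8, among 44 of 2955, and without that of pool 2 it called 2, among 3 of 2995. Neutrophil genes were also called in vehicle minus NTB in some settings, which rests on 1 vehicle mouse. In BRQ minus NTB 11 of 12 tested neutrophil genes had a log2 fold change below 0 (median -1.69, against -0.01 over all 3071 genes), and 7 had an unadjusted p under 0.05, where 2.9% of all genes did in that direction. Elane, the neutrophil elastase gene, had 35.6, 19.0 and 2.04 in the NTB mice and 8.32, 7.61 and 3.03 in the BRQ mice (log2 fold change -1.62 ± 0.58 (SE), edgeR adjusted p = 0.63). The NTB and BRQ values overlapped, and without the Scrublet doublets the log2 fold change was 1.08 against the NTB mouse of pool 3 alone and -1.94 with the same 7 mice. It was -2.58 and called with tag ratio calls (edgeR adjusted p = 3.8e-08), -2.16 and called without the NTB mouse of pool 3 (edgeR adjusted p = 9.7e-05), called with no filter on low counts, and -0.64 without the NTB mouse of pool 1. In the vehicle mouse of pool 1 Elane had 1.20, with a log2 fold change of -3.99 ± 1.09 (SE) against NTB, which was -4.54 with the pool as a block. Without the Scrublet doublets it was -0.75 against the NTB mouse of pool 3 alone and -3.78 with the same 7 mice. The vehicle mice of pools 2 and 3, left out of the fit, had Elane at 31.0 and 2.09, from 3 and 2 members. Prtn3, the proteinase 3 gene, was called in BRQ minus NTB in both directions, with a log2 fold change of -1.92 with tag ratio calls and -0.88 with no filter on low counts, but 1.68 without the Scrublet doublets against that NTB mouse alone (edgeR adjusted p = 2.5e-05). Of 5 tested erythroid genes, 4 had a log2 fold change below 0 in BRQ minus NTB, with a summed level of 24.7, 0.355 and 2.98 in the NTB mice and 1.38 to 2.62 in the BRQ mice. The NTB mouse of pool 1 alone was high, and 2 of its 5 members were marked by Scrublet. The part of these transcripts in the results below was not tested.

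Of the basophil genes outside the rule, Cyp11a1 had a level of 1.09, 2.84 and 3.23 in the NTB mice, 0.638 in the vehicle mouse of pool 1 and 1.49, 1.74 and 1.03 in the BRQ mice. The vehicle mouse was the lowest of the 7, with a log2 fold change of -1.86 ± 0.62 (SE) against NTB (edgeR adjusted p = 0.87). The 2 vehicle mice left out of the fit had 2.09 and 11.5, from 3 and 2 members. Both members of the vehicle mouse of pool 3, whose levels of Alox5 and Ifitm1 are also given below, held Gzmb (6 and 3 UMIs). Without the Scrublet doublets the log2 fold change of Cyp11a1 was -2.62 and called (edgeR adjusted p = 0.0049), but that fit sets 1 vehicle mouse against 1 NTB mouse. With the same 7 mice it was -2.34 and not called (edgeR adjusted p = 0.62), and with all 9 mice it was -0.20. The mice also differed in Mcpt8 range, with 7 of 10 members under 5 Mcpt8 UMIs in that vehicle mouse against 0 of 5, 0 of 5 and 5 of 13 in the NTB mice. Over the 4 ranges above, Cyp11a1 and Alox5 were lowest in the lowest range, and Ifitm1 had 13.5, 14.5, 14.1 and 7.45. The part of the Mcpt8 range in these differences was not tested. Alox5 had 1.27, 2.66 and 2.04 in NTB, 0.479 in the vehicle mouse of pool 1 and 1.55, 1.38 and 0.710 in BRQ mice, with a log2 fold change of -1.97 ± 0.65 (SE) for vehicle minus NTB. The other vehicle mice had 1.26 and 5.21, the latter the highest of the 9 mice, and the log2 fold change was -0.69 with tag ratio calls and -0.95 with all 9 mice. Ifitm1, an interferon-inducible membrane protein gene high in progenitors, was 5.07, 5.14 and 14.4 in NTB, 19.5 in the vehicle mouse of pool 1 and 7.43, 6.60 and 13.1 in BRQ mice (log2 fold change 1.22 ± 0.44 (SE), vehicle minus NTB). The other vehicle mice had 11.3 and 9.38, within the NTB range. In BRQ minus NTB the log2 fold change of Ifitm1 was 0.09 over the 7 mice, but -1.85 and called with tag ratio calls (edgeR adjusted p = 1.0e-05). In BRQ minus vehicle it was -2.52 with tag ratio calls, against 1 vehicle mouse. None of the 3 genes passed the adjusted threshold in edgeR over the 7 mice with doublets kept and no block. For Ifitm1 the log2 fold change was 1.72 and called with the pool as a block (edgeR adjusted p = 0.0013), but 0.19 without the Scrublet doublets against the NTB mouse of pool 3 alone (edgeR adjusted p = 0.92), 0.80 without them in the same 7 mice, 0.66 with tag ratio calls and 0.71 with all 9 mice. It was also called with no filter on low counts and without the NTB mouse of pool 3.

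On the basophil list without the 5 genes of the rule, 10 of 15 tested genes had a log2 fold change below 0 in vehicle minus NTB, which rests on 1 vehicle mouse (median -0.23, against -0.03 over all genes). In BRQ minus NTB it was 5 of 15 (median 0.13, against -0.01 over all genes). On the list of mediator synthesis and storage, also without them, it was 11 of 16 in both (medians -0.17). The 2 comparisons share the NTB mice. Gata2 had 3.35, 11.4 and 8.16 in NTB, 5.59 in the vehicle mouse and 6.84, 7.89 and 6.39 in BRQ mice. Its log2 fold change in BRQ minus vehicle was 0.30 ± 0.44 (SE), but -0.089 with the pool as a block, and the BRQ values lay within the NTB range. The vehicle mice of pools 2 and 3, left out of the fit, had Gata2 at 8.80 and 14.6, above the BRQ mice. FcεRI signaling (median -0.10 and -0.18) and lineage transcription factors (-0.23 and -0.09) had 0 genes called by edgeR over the 7 mice in vehicle minus NTB and in BRQ minus NTB. Without the NTB mouse of pool 3, Ikzf2 was called in vehicle minus NTB (log2 fold change 1.96, edgeR adjusted p = 0.033) and Lmo4 in BRQ minus NTB (0.87, edgeR adjusted p = 0.035).

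Cell cycle genes were set apart by phase because BRQ blocks the supply of pyrimidines. In BRQ minus NTB 26 of 30 tested S phase genes had a log2 fold change below 0 (median -0.58) and 37 of 40 G2/M genes one above 0 (median 0.59), with 7 of each list at an unadjusted p under 0.05 in that direction. In that comparison 2.9% of all 3071 genes were lower and 2.64% higher at that p, and 0 of the S and G2/M genes were called in edgeR over the 7 mice. Other settings called some of them in BRQ minus NTB, namely Cenpf, Ube2c, Cenpa and Nusap1 with tag ratio calls, Cenpf with no filter on low counts, and Cenpf and Rrm2 without the NTB mouse of pool 3. Rrm2, a ribonucleotide reductase subunit gene of S phase, had 2.53, 1.42 and 0.680 in NTB and 0.713, 0.550 and 0.323 in BRQ mice (log2 fold change -1.56 ± 0.48 (SE), edgeR adjusted p = 0.48). Its log2 fold change was -0.55 with tag ratio calls, -0.84 without the NTB mouse of pool 1, and -2.00 and called without that of pool 3 (edgeR adjusted p = 0.013). Nusap1, a spindle protein gene, had 0.995, 1.60 and 0.850 in NTB and 2.08, 3.12 and 2.71 in BRQ mice (1.24 ± 0.33, edgeR adjusted p = 0.36). Nusap1 and Cenpf did not overlap between the 2 groups, and Rrm2 did. The share of all tested genes without overlap was not counted, so this is only a description of the named genes. Cenpf, a kinetochore gene, had 0.271, 1.77 and 1.96 in NTB and 2.62, 3.49 and 3.36 in BRQ mice (1.26 ± 0.41, edgeR adjusted p = 0.53). Its log2 fold change was 2.15 and called with tag ratio calls (edgeR adjusted p = 8.9e-05), 1.90 and called without the NTB mouse of pool 3 (edgeR adjusted p = 0.031), and 0.71 without the NTB mouse of pool 1. Without the Scrublet doublets it was 0.71 against the NTB mouse of pool 3 alone and 1.01 with the same 7 mice.

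The summed S phase level was 56.1, 50.9 and 30.3 in NTB, 27.8 in the vehicle mouse and 38.7, 23.9 and 28.2 in BRQ mice. The difference of BRQ minus NTB was -15.5 (two-sided exact permutation test p = 0.2, adjusted over the 6 tests 0.6). The summed G2/M level was 74.4, 112 and 78.2 in NTB, 91.1 in the vehicle mouse and 95.6, 128 and 119 in BRQ mice, a difference of 26.0 (exact permutation p = 0.2, adjusted 0.6). Both sums overlapped between NTB and BRQ mice. Within each pool the BRQ mouse was below the NTB mouse for S phase and above it for G2/M, and no paired test was run. With each member thinned to 2000 UMIs the S phase order held, but the G2/M order turned in pools 1 and 2 (92.0 and 128 in NTB, 87.0 and 101 in BRQ mice). With each member thinned to 2000 UMIs the G2/M difference was 6.35 (exact permutation p = 0.9), and with tag ratio calls the S phase difference was -5.36 (exact permutation p = 0.8) and the G2/M difference 41.3 (exact permutation p = 0.1, the smallest possible). The G2/M sums of the 2 BRQ mice then lay at 114 and 122, above the 3 NTB mice at 76.1, 77.7 and 76.4. In vehicle minus NTB 24 of 30 S phase genes were below 0 (median -0.87), also with 0 called in edgeR over the 7 mice, and the vehicle mouse was within the BRQ range. Rrm2 was called in that comparison with the pool as a block (log2 fold change -2.88, edgeR adjusted p = 0.034) and Mcm2, a helicase subunit gene, without the NTB mouse of pool 3 (-2.49, edgeR adjusted p = 0.034). Dhodh, the target of BRQ, was found in only 19 members (level 0.110, and 0.102 in other cells), too few UMIs for a comparison between mice.

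**Figure D5:**
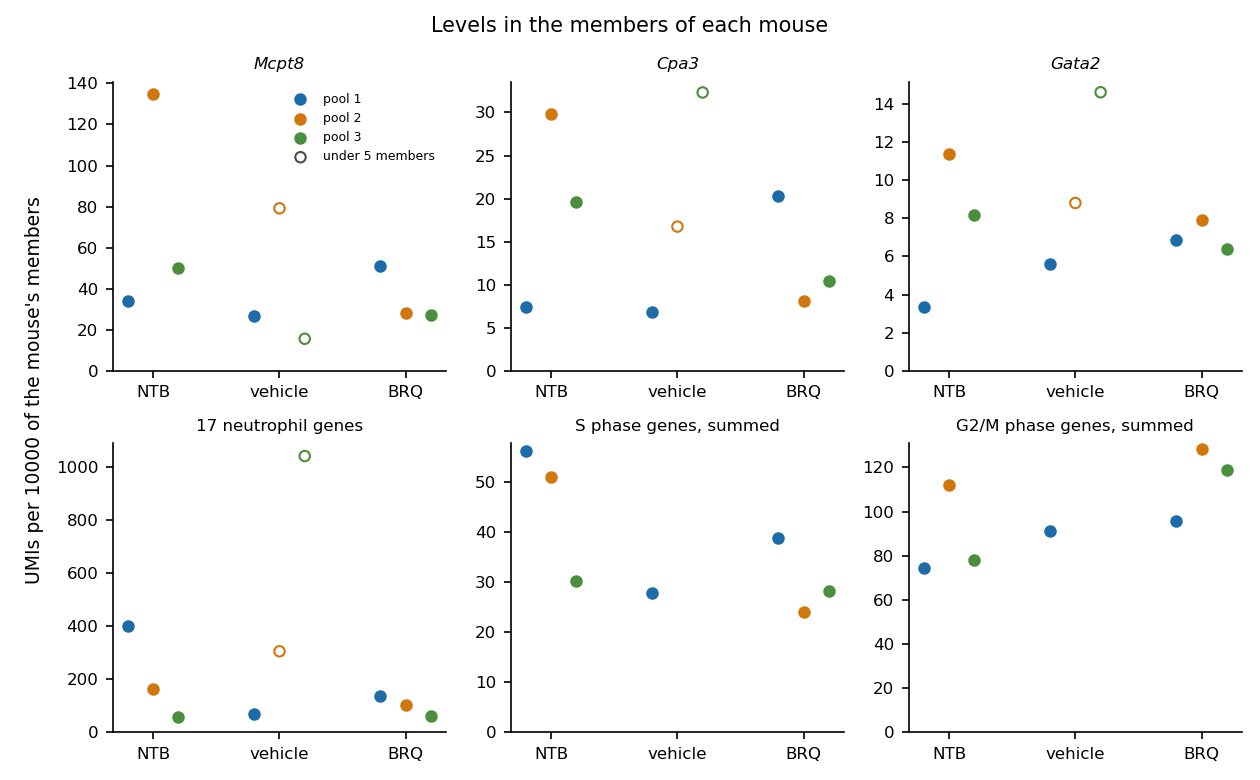
Levels (UMIs per 10000) in the members of each mouse are shown by group, 1 point per mouse, colored by pool, with open points for the 2 vehicle mice with fewer than 5 members. NTB, vehicle and BRQ mice overlap for Mcpt8 and Gata2, and the neutrophil sum runs from 56.8 to 1042, the latter in a vehicle mouse with 2 members.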

How the data were processed

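The deposited values are UMI counts of genes and hashtags for each barcode of a pool. Per the labels the authors used Cell Ranger 6.0.0, mm10 and Seurat. Members, gene lists and Mcpt8 ranges were chosen with earlier results of these data known. The study words its limits of 500 and 7500 as transcripts, and they were read here as detected genes. Cells were given to mice with HTODemux (Seurat 5.3.0), and doublets were marked with Scrublet (scanpy 1.11.5) and kept unless stated. Levels are summed counts per 10000 UMIs. Cell filters leave the pools 9593 to 11994 cells (median 7445 to 7996.5 UMIs per barcode before filtering).

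Counts were summed per mouse over its members and compared with edgeR 4.0.16 (TMM, filterByExpr, quasi-likelihood test, two-sided, Benjamini-Hochberg adjusted p under 0.05) over the 7 mice with at least 5 members. The sums were also fitted with DESeq2 1.42.0. Shares and phase sums were compared with two-sided exact permutation tests. Code was tested on simulated data. Genes named in the text are the markers, the 30 genes with the highest ratio and quoted members of the lists. With 0 genes called in the 7 mice, the genes named as called are those of the alternatives, and they and some genes of the Mcpt8 ranges were chosen after their values were seen.

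The labels pair the mice of a pool, which shared 1 capture. Deviations from the group means of NTB and BRQ mice of the same pool correlated with r of 0.020, -0.049 and 0.142 across genes (median 0.020, against -0.029 for mice of different pools). Correlations across genes are descriptions. Promoter windows came from RefSeq (GRCm38.p6), where 9 of 9 genes matched. R 4.3.3 and Python 3.11.15 (numpy 2.4.6, pandas 2.3.3, scipy 1.17.1, matplotlib 3.10.9) were used. Alternatives were another hashtag call, doublets left out, other readings of the filters and conditions, thinning, no filter on low counts, the pool as a block, and each mouse left out.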

Additional observations from a re-analysis of the deposited data

Results flagged for a closer look

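Among the 6726 barcodes that the cell filters left out, 4 met at least 3 of the 5 marker conditions with no Epx, and the whole set of barcodes thus held 186 such cells. Those 4 were in no comparison above. They stand out because they carry the marker signal in data that were not used, and no value beyond their number is given.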

How the results depend on the processing

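Reading the cell limits as UMIs left 74 members and asking for 4 of the 5 conditions left 120. The UMI reading turned the difference in share to 0.150 percentage points for vehicle minus NTB and to -0.205 for BRQ minus vehicle, which was -0.0672 with 4 of 5 conditions. The pool as a block cannot move the 3 differences in share, since each pool held 1 mouse of each group, and gave exact permutation p = 0.75, 1 and 0.25 for -0.171, 0.00286 and -0.168. Leaving out each mouse gave -0.346 to -0.0224, -0.135 to 0.178 (3 of 6 below 0) and -0.279 to -0.0195. Genes called, in the order vehicle minus NTB, BRQ minus vehicle and BRQ minus NTB, were 24, 5 and 30 with no filter on low counts, 25, 3 and 9 with the replicate block, 6, 2 and 17 with tag ratio calls, 7, 3 and 2 without Scrublet doublets (which left 1 NTB, 1 vehicle and 3 BRQ mice) and 0, 0 and 1 with each member thinned to 2000 UMIs. They were 0 in each with all 9 mice and with the Scrublet doublets left out of the same 7 mice, both added after seeing the data. Leaving out 1 mouse gave 0 to 25, 0 to 0 and 0 to 44, the highest without NTB replicate 3. The genes of the rule, which chose the members, were not left out of these counts. Mcpt8 was the only gene called with thinned members. Differences of phase sums turned for S phase in BRQ minus vehicle (-1.70 to 5.68 with a mouse left out) and for G2/M in vehicle minus NTB (-4.11 to 14.8, and -13.0 thinned). Gata2 in BRQ minus vehicle was -0.089 with the block and -0.22 with all 9 mice, and Elane in BRQ minus NTB was 1.08 without Scrublet doublets and 2 of the 3 NTB mice. For the genes tested by name, 93 other values kept sign and side of the threshold and 16 kept sign and passed it. The cause of these changes was not tested. Comparisons among members of 10 or more per mouse, and gene tests under the UMI reading, could not be fitted, and with 4 of 5 conditions or Mcpt8 of 5 or more only BRQ minus NTB could be, with 1 BRQ mouse and 0 genes called by edgeR (28 and 38 at an unadjusted p under 0.05). Depth limits the comparisons between mice, with 2 to 15 members and 9590 to 168223 UMIs per mouse.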
